A study of Mus musculus with 8 samples.

Results

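The 35 genes described here make fatty acids, lengthen and desaturate them, assemble triglyceride and coat or enlarge lipid droplets in hepatocytes. They were taken by name from a table of 25690 genes, in which all 35 were found. The tissue was mouse liver: 4 libraries carried a hepatic FOXO1 knockout (numbers 3, 9, 10 and 11 in their titles) and 4 were wildtype controls (numbers 1, 3, 10 and 12). The labels name neither strain, sex, age and feeding state nor the means by which the gene was deleted. They also leave unsaid whether every library had an animal of its own, so a p-value here speaks for the spread among libraries, which may be technical. Values are FPKM (fragments per kilobase of transcript, scaled to the size of the library) and are listed in the order of the library numbers just given.

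Hepatocytes turn surplus acetyl groups into fatty acid through ATP citrate lyase, acetyl-CoA carboxylase and fatty acid synthase, and pass the product to elongases, desaturases and the acyltransferases that build triglyceride, which is stored in droplets or exported. Insulin turns this pathway on, largely through SREBP-1c, the product of Srebf1, and the same signal keeps the forkhead factor FoxO1 out of the nucleus. The comparison of knockout with wildtype liver asks which of these transcripts differ when FoxO1 is missing. A level of a bulk sample cannot tell fewer cells of a type apart from less RNA per cell.

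Foxo1 itself was at 0.224, 0.267, 0.375 and 0.212 FPKM in knockout liver, against 3.21, 3.01, 3.38 and 3.81 FPKM in wildtype liver, so each library matched its label. Depth, estimated from the FPKM that a single fragment gives, lay between 26900000 and 35100000 fragments. Knockouts 3 and 11 stood apart from the rest in the acute phase transcripts that liver makes in inflammation: Saa1, a serum amyloid gene, was at 28400, 573, 266 and 33000 FPKM in knockout liver, against 97.3, 98.9, 78.3 and 195 FPKM in wildtype liver. S100a8, a neutrophil gene, was at 31.4, 1.16, 2.40 and 77.2 FPKM in knockout liver, against 0.825, 3.19, 0.960 and 2.38 FPKM in wildtype liver. The part these transcripts have in the members' values was not tested. The sum of 11 hepatocyte markers was 27900 to 60700 FPKM in knockout liver and 50200 to 56500 FPKM in wildtype liver, with Alb listed at 0 in knockout 10, which can be a failed estimate. Of these markers Cyp2e1 was lower (-0.60, limma adjusted p = 0.0318) and Hnf4a higher (0.43, limma adjusted p = 0.0494).

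The desaturase genes of polyunsaturated fatty acid synthesis, Fads2 and Fads1, and Agpat2, an acyltransferase gene of triglyceride assembly, were higher in knockout liver. Mid1ip1, whose product binds acetyl-CoA carboxylase and promotes its assembly into active filaments, was lower. For Fads1 no promoter window was at hand. The promoters of the other 3 of these 4 genes are shown because these members carry the differences found. They are RefSeq sequences on the build GRCm38.p6, 250 bases before to 50 bases after the RefSeq start, and capitals mark the 50 bases from that start on. For Fads2 and Mid1ip1 the RefSeq start lies inside the gene as GENCODE gives it. On the minus strand that Fads2 gene begins at 10101746, so nearly all of its window lies within it. For Mid1ip1 not all of these 50 bases lie in a GENCODE exon. The Fads2 window lies at chr19:10101454-10101753 on the minus strand, that of Agpat2 at chr2:26604368-26604667 on the minus strand, and that of Mid1ip1 at chrX:10717115-10717414 on the plus strand.
Fads2: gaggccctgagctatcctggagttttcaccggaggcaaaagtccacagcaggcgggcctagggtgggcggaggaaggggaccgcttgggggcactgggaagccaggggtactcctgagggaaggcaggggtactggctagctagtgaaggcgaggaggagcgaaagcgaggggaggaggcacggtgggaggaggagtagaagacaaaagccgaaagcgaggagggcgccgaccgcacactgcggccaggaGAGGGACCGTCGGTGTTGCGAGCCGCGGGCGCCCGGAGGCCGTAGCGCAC
Agpat2: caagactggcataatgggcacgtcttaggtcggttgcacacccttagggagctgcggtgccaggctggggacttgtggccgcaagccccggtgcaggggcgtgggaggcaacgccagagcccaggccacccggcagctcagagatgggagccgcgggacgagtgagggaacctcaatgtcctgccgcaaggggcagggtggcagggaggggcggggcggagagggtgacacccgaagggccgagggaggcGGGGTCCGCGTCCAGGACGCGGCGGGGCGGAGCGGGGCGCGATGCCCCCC
Mid1ip1: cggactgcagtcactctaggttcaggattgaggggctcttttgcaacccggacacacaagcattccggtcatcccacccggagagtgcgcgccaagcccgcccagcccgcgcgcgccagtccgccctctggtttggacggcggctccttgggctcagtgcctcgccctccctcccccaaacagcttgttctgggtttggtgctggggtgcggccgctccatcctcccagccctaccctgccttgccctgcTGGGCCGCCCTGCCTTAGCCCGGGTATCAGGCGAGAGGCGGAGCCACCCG

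Both strands were searched for the forkhead core GTAAACA, the E-box CACGTG, the sterol element TCACNCCAC and the NF-Y core CCAAT, none of which contains another, and these 3 windows held 0 matches. Promoter windows were at hand for 30 of the 35 genes, all but Fads1, Scd1, Dgat1, Dgat2 and Cidea. The sterol element was in 0 of the 30 and in 1.24% of all 32851 windows, and the E-box was in 3 of the 30 and in 7.15% of all. CCAAT was in 20 of the 30, among them those of Fasn, Acly, Srebf1 and Thrsp, and in 37.4% of all windows. The forkhead core was in 2 of the 30, those of Elovl6 and Lpin2, and in 3.65% of all. Because FoxO1 is a forkhead factor, these stretches are shown with the match in capitals, on the plus strand at chr3:129532252-129532280, starting 123 bases before the transcript start of Elovl6, and at chr17:71204505-71204533, starting 138 bases before that of Lpin2. For Lpin2 that transcript start, and the stretch shown, lie inside the gene as GENCODE gives it, which begins at chr17:71182560. A match is a run of letters, not a shown binding site, and neither gene passed the test described next.
Elovl6: accaccttcttGTAAACAaaactatcccc
Lpin2: tacctatcagtGTAAACAcatggtgcggc

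Among the 35 genes, 32 averaged 1 FPKM or more across all 8 libraries and were tested with limma on log2(FPKM + 1), fitted over all 10250 genes that passed this filter, with p-values adjusted over all of them by the Benjamini-Hochberg method and a threshold of 0.05. In knockout liver 3 members were higher and 1 was lower. Over all tested genes the share past the threshold was 14.4%, made up of 2.7% higher and 11.7% lower, so the 4 of 32 members (12.5%) lay near that background. The groups did not overlap for 3 members in the higher and 1 in the lower direction, where the share of all tested genes was 4.83% and 16.5%. The median log2 change of the 32 members was 0.08, against -0.08 over all tested genes, and 21 of the 32 members had a positive value, against 37.7% of all. Over all genes 277 were higher and 1195 lower. With median-ratio scaling 485 genes were higher (4.73%) and 720 lower (7.02%), and the same 4 members passed. With quantile normalization 470 were higher (4.59%) and 652 lower (6.36%), and Cideb passed as higher beside these 4. The median of all tested genes was 0.01 with median-ratio scaling and -0.006 with quantile normalization, and that of the members 0.17 and 0.26. With 1 library left out the members' median lay between 0.004, without knockout 10, and 0.18, without wildtype 12. Without knockouts 3 and 11 the share of all genes past the threshold was 8.34%, with 1.94% higher and 6.4% lower, and 1 member, Fads2, was higher while 0 were lower.

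**Figure D1:**
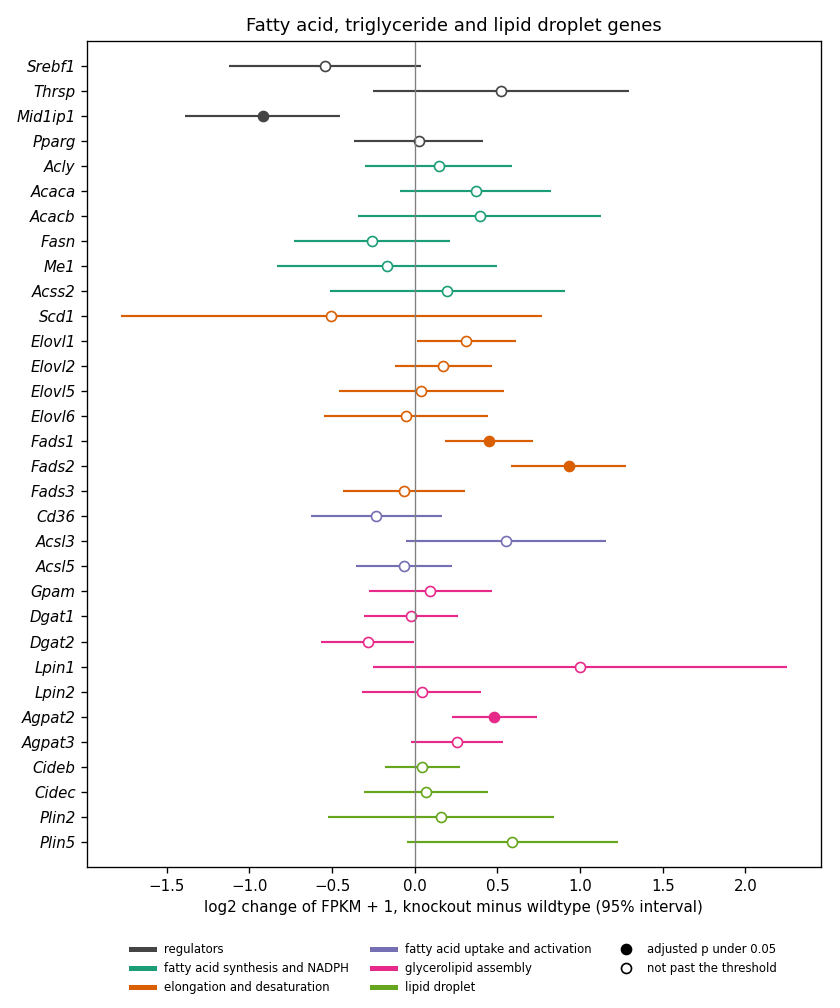
Log2 change of FPKM + 1, knockout minus wildtype, for the 32 tested members, grouped by role; points are limma estimates from 4 knockout and 4 wildtype libraries, bars are 95% intervals, and filled points passed the adjusted threshold of 0.05. Fads2 (0.93), Agpat2 (0.48) and Fads1 (0.45) lie to the right of 0 and Mid1ip1 (-0.92) to the left, while Scd1 and Lpin1 have the widest intervals.

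Fads2 (ENSMUSG00000024665, chromosome 19, 10062765 to 10101746, mm10, minus strand, protein-coding) encodes the desaturase that starts the conversion of linoleic and alpha-linolenic acid to longer polyunsaturated fatty acids. It was at 176, 164, 173 and 126 FPKM in knockout liver, against 89.1, 63.4, 85.5 and 95.9 FPKM in wildtype liver. The lowest knockout library, number 11, was above the highest wildtype library, number 12. The means were 160 ± 23.2 FPKM in knockout and 83.5 ± 14.1 FPKM in wildtype liver (SD, n = 4 each), a ratio of 1.91, and the log2 change was 0.93 (SE 0.15, limma adjusted p = 0.00648). It passed without any single library (limma adjusted p up to 0.0236) and without knockouts 3 and 11 together (1.02, limma adjusted p = 0.0175).

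Fads1 (ENSMUSG00000010663, chromosome 19, 10182888 to 10196877, plus strand), the desaturase that acts later in the same pathway and forms arachidonic acid, was at 148, 115, 111 and 132 FPKM in knockout liver, against 99.1, 78.9, 93.4 and 96.3 FPKM in wildtype liver. The groups did not overlap, but the gap between knockout 10 and wildtype 1 was small. The means were 126 ± 17 FPKM in knockout and 91.9 ± 8.97 FPKM in wildtype liver (SD, n = 4 each), with a log2 change of 0.45 (SE 0.12, limma adjusted p = 0.0344). Fads1 did not pass without knockout 3 (0.0789), knockout 11 (0.0738), wildtype 1 (0.0664), wildtype 3 (0.0835), wildtype 10 (0.0785) or wildtype 12 (0.0619), each alone, nor without knockouts 3 and 11 together (0.30, limma adjusted p = 0.149) or with no filter on low values (0.0597). The ratio of Fads2 to Fads1 FPKM lay between 0.952 and 1.56 in knockout libraries and between 0.803 and 0.995 in wildtype libraries, with an overlap at knockout 11.

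The elongases of polyunsaturated fatty acid synthesis did not pass. Elovl5, which lengthens the product of Fads2, was at 45.4, 66.6, 89.4 and 56.3 FPKM in knockout liver, against 60.9, 47.4, 56.3 and 84.1 FPKM in wildtype liver (log2 change 0.04, 95% interval -0.46 to 0.54, limma adjusted p = 0.929). Elovl2, which acts on the longest polyunsaturated chains, had a log2 change of 0.17 (95% interval -0.12 to 0.47, limma adjusted p = 0.421). Both intervals hold 0 and small changes in either direction. Fads3, the third gene of the desaturase cluster, was low, at 1.3, 1.86, 2.89 and 1.3 FPKM in knockout liver, against 1.90, 1.66, 1.96 and 2.08 FPKM in wildtype liver, and its groups overlapped (-0.06, limma adjusted p = 0.832).

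Fads1, Fads2 and Fads3 lie side by side on chromosome 19. In a window of 250 kb on each side of Fads2 there were 13 genes, of which 3 besides the desaturase genes were tested. These neighbours were looked up after the values of the members were seen. Tmem258, which encodes a subunit of the oligosaccharyltransferase complex and starts 102.3 kb from the Fads2 start, was lower in knockout liver (-0.57, limma adjusted p = 0.00876). Fth1, the ferritin heavy chain gene, had a log2 change of -0.37 (limma adjusted p = 0.0714), and Myrf, a transcription factor gene, one of 0.03 (limma adjusted p = 0.889). Of the 3 tested neighbours 0 were called higher and 1 lower, where 2.7% of all tested genes were higher and 11.7% lower. With 3 genes these counts cannot be told apart from those shares.

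**Figure D2:**
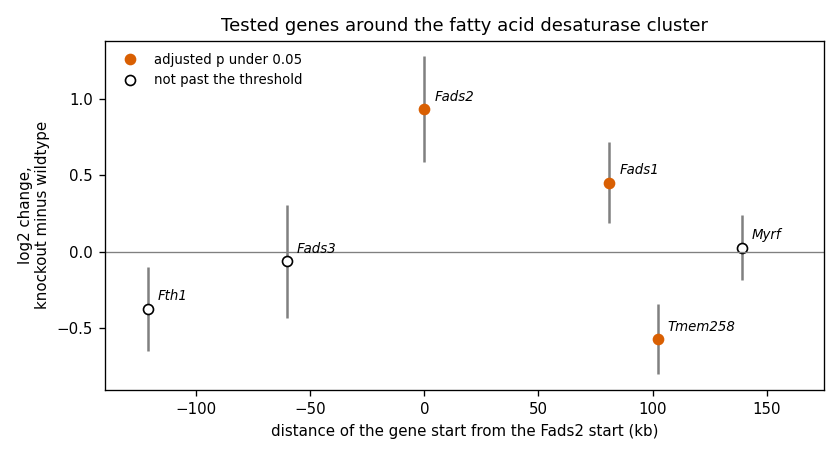
Log2 change, knockout minus wildtype, of the 6 tested genes around the desaturase cluster against the distance of each gene start from the Fads2 start in kb; bars are 95% intervals and filled points passed the adjusted threshold of 0.05. Fads2 (0.93) and Fads1 (0.45) lie above 0, Tmem258 (-0.57) below, and the intervals of Fads3 and Myrf hold 0.

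The other genes of elongation and desaturation did not pass. Scd1, the desaturase that makes oleic and palmitoleic acid, varied widely within groups, at 138, 57.9, 442 and 273 FPKM in knockout liver, against 162, 205, 265 and 451 FPKM in wildtype liver. Its lowest library was knockout 9 and its highest wildtype 12, and its log2 change of -0.51 had a 95% interval of -1.78 to 0.77 (limma adjusted p = 0.601). Elovl1, an elongase of saturated and monounsaturated chains, was at 31.4, 26.7, 38.0 and 30.4 FPKM in knockout liver, against 20.6, 29.4, 25.6 and 25.5 FPKM in wildtype liver (0.31, limma adjusted p = 0.151). Elovl6, which lengthens palmitate, was between 2.71 and 5.36 FPKM in knockout liver and between 2.28 and 5.52 FPKM in wildtype liver (-0.05, limma adjusted p = 0.898).

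Among the regulators, Mid1ip1 (ENSMUSG00000008035, chromosome X, plus strand) was at 22.7, 22.3, 12.5 and 15.2 FPKM in knockout liver, against 25.2, 37.8, 39.2 and 36.9 FPKM in wildtype liver. Every knockout library was below every wildtype library, and wildtype 1 came closest to the knockout group. The means were 18.2 ± 5.10 FPKM in knockout and 34.8 ± 6.45 FPKM in wildtype liver (SD, n = 4 each), a ratio of 0.523, and the log2 change was -0.92 (SE 0.21, limma adjusted p = 0.0192). It did not pass without wildtype 3 (0.0520), wildtype 10 (0.0569) or wildtype 12 (0.0535), each alone, without knockouts 3 and 11 together (-0.99, limma adjusted p = 0.0551) or with no filter on low values (0.0505).

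Thrsp, known as Spot 14, is the paralog of Mid1ip1 and a marker of lipogenesis that thyroid hormone and carbohydrate raise. It was at 551, 244, 291 and 542 FPKM in knockout liver, against 170, 208, 387 and 364 FPKM in wildtype liver, with the highest values in knockouts 3 and 11 and an overlap of the groups (0.52, 95% interval -0.25 to 1.29, limma adjusted p = 0.349). Without knockouts 3 and 11 its log2 change was 0.003 (limma adjusted p = 0.998). The ratio of Mid1ip1 to Thrsp FPKM lay between 0.0280 and 0.0915 in knockout libraries and between 0.101 and 0.182 in wildtype libraries, without overlap. This ratio was chosen after its members' values were seen and is given without a test.

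Srebf1 was at 58.0, 50.8, 31.1 and 44.3 FPKM in knockout liver, against 42.1, 58.9, 83.0 and 91.1 FPKM in wildtype liver. Wildtype 3, 10 and 12 were above every knockout library, number 3 by a narrow gap, while wildtype 1 was below knockouts 3, 9 and 11. The means were 46.1 ± 11.4 FPKM in knockout and 68.8 ± 22.4 FPKM in wildtype liver (SD, n = 4 each), and the log2 change of -0.54 did not pass (95% interval -1.12 to 0.04, limma adjusted p = 0.193). Pparg, the adipogenic nuclear receptor gene that fatty liver is known to raise, was low at 1.14, 1.05, 1.49 and 1.12 FPKM in knockout liver, against 1.23, 0.681, 0.884 and 2.06 FPKM in wildtype liver (0.02, limma adjusted p = 0.944). Its knockout values lay within the wildtype range.

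**Figure D3:**
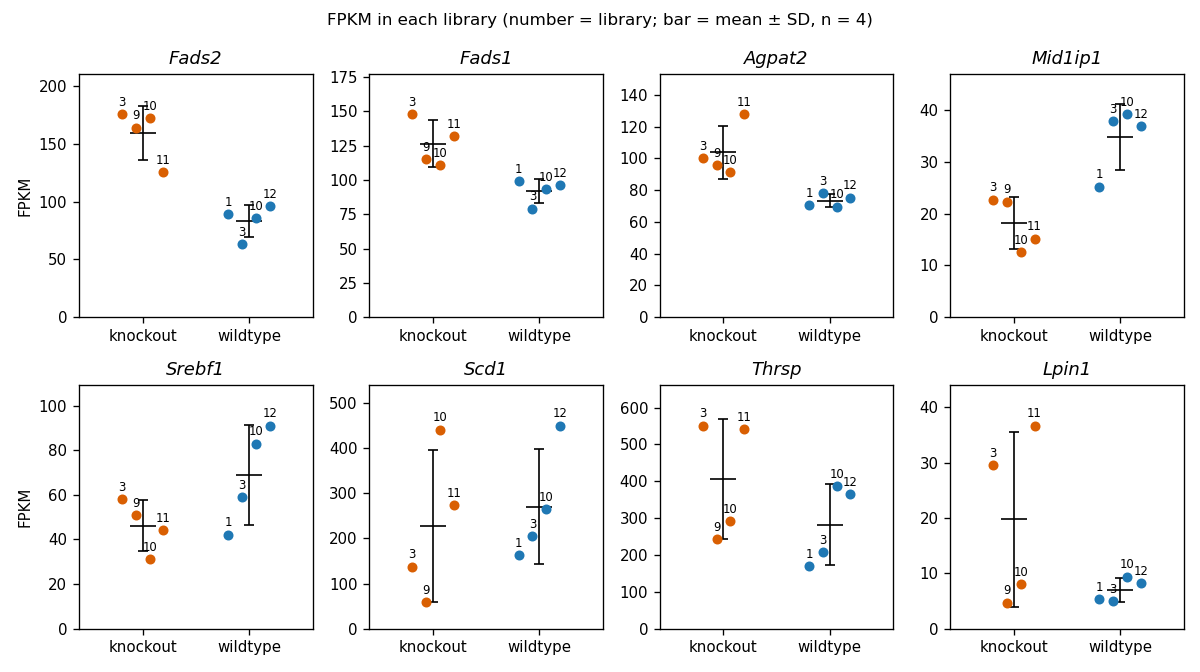
FPKM of 8 members in each library, knockout on the left and wildtype on the right of each panel, with the library number beside each point and the mean ± SD (n = 4) as a black bar; every axis starts at 0. Fads2, Fads1 and Agpat2 are higher and Mid1ip1 is lower in knockout libraries without overlap, while Srebf1, Scd1, Thrsp and Lpin1 overlap, with Lpin1 high in knockouts 3 (29.5) and 11 (36.7).

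None of the 6 genes of fatty acid synthesis and its NADPH supply passed the test (limma, adjusted p from 0.257 to 0.748). The share of all tested genes was 14.4%, and with 6 genes a count of 0 cannot be told apart from it. Fasn, fatty acid synthase, was at 12.2, 14.2, 9.91 and 10.7 FPKM in knockout liver, against 9.10, 15.0, 20.6 and 14.1 FPKM in wildtype liver (-0.26, 95% interval -0.73 to 0.21, limma adjusted p = 0.450). Acaca, the cytosolic acetyl-CoA carboxylase that supplies malonyl-CoA for synthesis, was at 5.24, 4.82, 5.05 and 5.75 FPKM in knockout liver, against 2.27, 3.91, 3.63 and 6.18 FPKM in wildtype liver. Its knockout libraries lay above all wildtype libraries but number 12 (0.37, 95% interval -0.09 to 0.82, limma adjusted p = 0.257).

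Acacb, the mitochondrial carboxylase whose malonyl-CoA restrains fatty acid oxidation, was at 5.07, 1.52, 5.68 and 5.67 FPKM in knockout liver, against 2.03, 3.46, 2.08 and 4.49 FPKM in wildtype liver. Knockout 9 was the lowest library and the other knockout libraries were the highest. With all libraries its log2 change was 0.39 (limma adjusted p = 0.466), and it passed in 1 of 20 alternatives, without knockout 9 (0.73, limma adjusted p = 0.0468). Without knockouts 3 and 11 its log2 change was 0.08 (limma adjusted p = 0.927). Acly, which frees acetyl-CoA from citrate, had a log2 change of 0.14, Acss2, which makes acetyl-CoA from acetate, one of 0.20, and malic enzyme, Me1, one of -0.17. Without knockouts 3 and 11 Acss2 had a log2 change of -0.20 and Me1 one of 0.33, and neither passed.

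In glycerolipid assembly 1 of 7 tested genes was higher and 0 were lower. This is 14.3% past the threshold, near the 14.4% of all tested genes (2.7% higher and 11.7% lower). Agpat2 (ENSMUSG00000026922, chromosome 2, minus strand), which adds the second acyl chain to form phosphatidic acid and whose loss causes lipodystrophy, was at 100, 95.7, 91.5 and 128 FPKM in knockout liver, against 70.7, 78.3, 69.6 and 75.4 FPKM in wildtype liver. The lowest knockout library was above the highest wildtype library, number 3. The means were 104 ± 16.5 FPKM in knockout and 73.5 ± 4.10 FPKM in wildtype liver (SD, n = 4 each), with a log2 change of 0.48 (SE 0.12, limma adjusted p = 0.0239). It did not pass without wildtype 1 (0.0744), wildtype 10 (0.0710) or wildtype 12 (0.0518), each alone, or without knockouts 3 and 11 together (0.35, limma adjusted p = 0.0599). Agpat2 overlaps Egfl7, an endothelial gene on the opposite strand that was lower in knockout liver (11.6 ± 3.10 FPKM in knockout and 20.3 ± 2.51 FPKM in wildtype liver, SD, n = 4 each), and without a stated strand setting reads of the shared stretch cannot be told apart. Agpat2 is 1 of 6 members that overlap a gene averaging at least 1 FPKM. The same limit holds for Acss2 (with Gss, 36.9 FPKM), Acsl5 (Zdhhc6, 24.6 FPKM), Srebf1 (Rai1), Cideb (Nop9) and Acaca (Gm11437).

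Agpat3, a second acyltransferase, was at 84.6, 66.8, 65.8 and 75.5 FPKM in knockout liver, against 66.1, 49.7, 62.2 and 67.0 FPKM in wildtype liver (0.26, limma adjusted p = 0.201), and the groups overlapped. Gpam, the mitochondrial enzyme of the first acylation step, was at 11.8, 10.95, 9.38 and 7.94 FPKM in knockout liver, against 8.19, 7.19, 10.2 and 12.03 FPKM in wildtype liver (0.09, limma adjusted p = 0.747). Its groups covered nearly the same range.

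Dgat2, the final acyltransferase that prefers newly made fatty acids, was at 150, 148, 167 and 174 FPKM in knockout liver, against 204, 160, 235 and 186 FPKM in wildtype liver. Only wildtype 3 fell within the range of the knockout libraries, and the log2 change of -0.28 did not pass (95% interval -0.57 to -0.0027, limma adjusted p = 0.161). Dgat1, which re-esterifies fatty acids from outside the cell, was between 7.13 and 10.2 FPKM in knockout liver and between 7.20 and 9.52 FPKM in wildtype liver (-0.02, limma adjusted p = 0.921). In each library Dgat2 was 14.5 to 24.9 times as high as Dgat1 per transcript length.

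Lpin1, a phosphatidic acid phosphatase that also acts as a coactivator, split the knockout group. It was at 29.5, 4.65, 8.06 and 36.7 FPKM in knockout liver, against 5.35, 4.996, 9.40 and 8.25 FPKM in wildtype liver. Knockouts 3 and 11, the libraries with high Saa1, were above all others, and knockouts 9 and 10 lay at the wildtype level. The log2 change was 1.0 with all libraries (95% interval -0.25 to 2.25, limma adjusted p = 0.264) and -0.12 without knockouts 3 and 11 (limma adjusted p = 0.822). Lpin2, its paralog, was between 22.6 and 32.8 FPKM in knockout liver and between 20.4 and 33.7 FPKM in wildtype liver (0.04, limma adjusted p = 0.888).

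**Figure D4:**
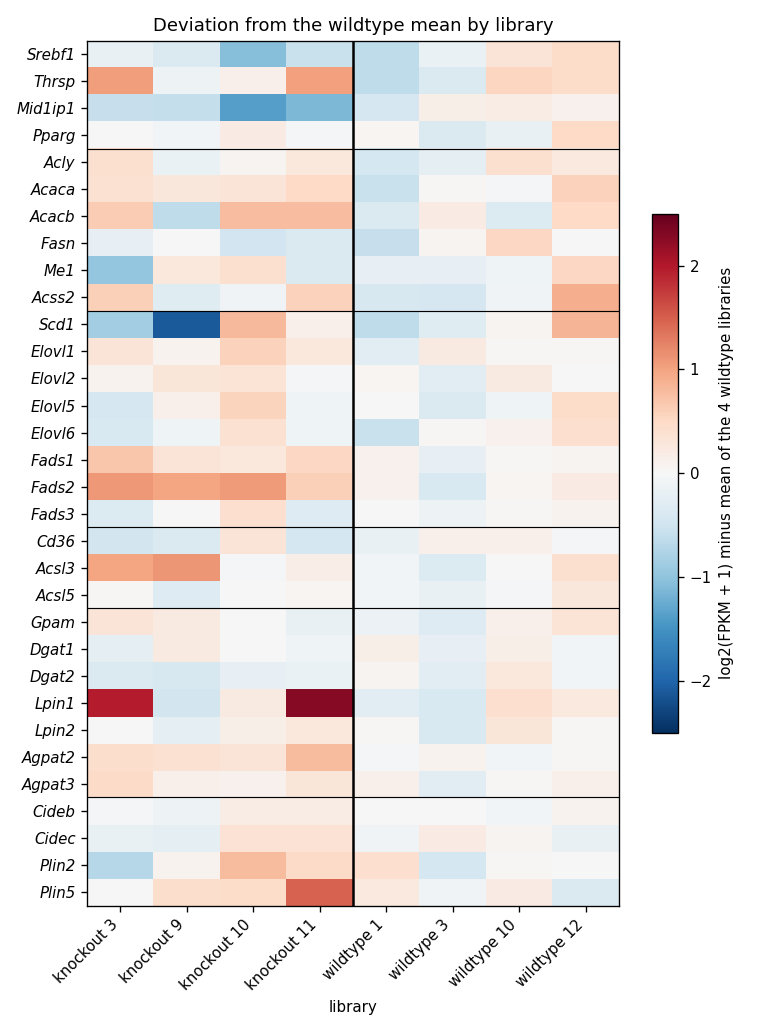
Log2(FPKM + 1) of the 32 tested members in each library minus the mean of the 4 wildtype libraries, knockout libraries on the left and wildtype libraries on the right; horizontal lines part the roles, from regulators at the top to lipid droplet genes at the bottom. Fads2 is above the wildtype mean in all 4 knockout libraries, Mid1ip1 is below it in all 4, Lpin1 is high in knockouts 3 and 11, and Scd1 is lowest in knockout 9.

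None of the 4 tested lipid droplet genes passed (limma, adjusted p from 0.197 to 0.822), where 14.4% of all tested genes did. With 4 genes a count of 0 cannot be told apart from that share. Plin2, the main droplet coat protein of hepatocytes, was at 105, 184, 302 and 240 FPKM in knockout liver, against 233, 128, 176 and 172 FPKM in wildtype liver (0.16, 95% interval -0.52 to 0.84, limma adjusted p = 0.768). Knockout 3 was its lowest library and knockout 10 its highest. Plin5, which tethers droplets to mitochondria, was at 9.14, 12.7, 12.9 and 27.4 FPKM in knockout liver, against 11.1, 8.52, 10.7 and 6.94 FPKM in wildtype liver (0.59, limma adjusted p = 0.197), with its highest value in knockout 11.

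The CIDE proteins fuse droplets and load lipid onto lipoproteins, and of their genes Cideb, the hepatocyte form, was abundant and even, between 164 and 206 FPKM in knockout liver and between 171 and 191 FPKM in wildtype liver (0.05, 95% interval -0.18 to 0.27, limma adjusted p = 0.802). Cidec, known as Fsp27, was at 1.3, 1.2, 2.36 and 2.38 FPKM in knockout liver, against 1.46, 2.02, 1.76 and 1.32 FPKM in wildtype liver (0.07, limma adjusted p = 0.822). Cidea was listed at 0 in 7 libraries and at 0.0556 FPKM in knockout 11. Pnpla3, a droplet acyltransferase and lipase whose human form carries a known fatty liver variant, was at 0.0315, 0.137, 0.173 and 0.0713 FPKM in knockout liver, against 0.0893, 0.0847, 0.125 and 0.141 FPKM in wildtype liver. Mogat1, a monoacylglycerol acyltransferase, was between 0.0953 and 0.5 FPKM in knockout liver and between 0.0797 and 1.2 FPKM in wildtype liver. Cidea, Pnpla3 and Mogat1 were under the filter and were not tested.

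Fat cells also express Pparg, Cidec, Cidea, Mogat1 and Cd36. Among 11 adipocyte markers, Lep and Retn were listed at 0 in all libraries, Adipoq reached at most 0.184 FPKM and Plin1 0.0161 FPKM. The sum of the 11 was 964 to 2570 FPKM in knockout liver and 1730 to 2210 FPKM in wildtype liver, most of it Car3, which hepatocytes express too. Without Car3, Fabp4 and Lipe the other 8 summed to 0.542 to 1.37 FPKM in knockout liver and to 0.242 to 0.710 FPKM in wildtype liver. For 12 macrophage markers the sum was 103 to 153 FPKM in knockout liver and 112 to 148 FPKM in wildtype liver. For 12 sinusoidal endothelial markers the sum was 51.8 to 86.3 FPKM in knockout liver and 86.2 to 109 FPKM in wildtype liver. For 10 stellate cell markers the sum was 41.5 to 100 FPKM in knockout liver and 75 to 93.8 FPKM in wildtype liver. For 8 cholangiocyte markers the sum was 24.5 to 35.5 FPKM in knockout liver and 19.1 to 25.5 FPKM in wildtype liver. For 10 lymphocyte markers the sum was 2.11 to 3.16 FPKM in knockout liver and 1.21 to 2.2 FPKM in wildtype liver. Of the endothelial markers 4 of 11 tested were lower and 0 higher, where 11.7% of all tested genes were lower and 2.7% higher. The part of these cells in the members' values was not tested.

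None of the 3 genes of fatty acid uptake and activation passed (limma, adjusted p from 0.202 to 0.777). With 3 genes this count cannot be told apart from the 14.4% of all tested genes. Cd36, a fatty acid translocase gene, was low, at 0.590, 0.712, 1.74 and 0.613 FPKM in knockout liver, against 0.913, 1.38, 1.38 and 1.11 FPKM in wildtype liver. Knockout 10 was above the wildtype range and the other knockout libraries were below it (-0.23, limma adjusted p = 0.422), and it passed in 1 of 20 alternatives, without knockout 10 (-0.42, limma adjusted p = 0.0399). Without knockouts 3 and 11 its log2 change was -0.01 (limma adjusted p = 0.974). Acsl3, an acyl-CoA synthetase of droplet growth, was at 10.2, 11.1, 4.51 and 5.35 FPKM in knockout liver, against 4.39, 3.5, 4.66 and 6.51 FPKM in wildtype liver (0.55, 95% interval -0.05 to 1.16, limma adjusted p = 0.202). Its high libraries were knockouts 3 and 9. Acsl5, a more abundant synthetase, was between 62.0 and 81.0 FPKM in knockout liver and between 68.4 and 95.7 FPKM in wildtype liver (-0.06, limma adjusted p = 0.777).

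For the 28 tested members that did not pass, the 95% interval of the log2 change lay within -1 and 1 for 21 and reached beyond for 7, namely Srebf1, Acacb, Scd1, Thrsp, Lpin1, Plin5 and Acsl3. Per transcript length Thrsp, Scd1, Plin2, Cideb, Dgat2, Fads2 and Fads1 had means of at least 100 FPKM over the 8 libraries, 15 members lay between 10 and 100, 10 between 1 and 10, and 3 under 1. The median deviation of the 32 tested members from the wildtype mean was 0.01, -0.04, 0.24 and 0.17 in knockout libraries and -0.09, -0.21, 0.06 and 0.18 in wildtype libraries on the log2 scale, so that wildtype 12 lay at the level of knockout 11.

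Partners of the pathway outside the 35 genes were counted by list. For every list the background is that of all tested genes, 2.7% higher and 11.7% lower. Of 17 tested regulators of lipogenic transcription 1 was higher and 0 were lower, with a list median of -0.001 against -0.08 over all tested genes. It was Scap, which escorts SREBP from the endoplasmic reticulum to the Golgi, at 37.2 ± 7.53 FPKM in knockout and 20.8 ± 4.67 FPKM in wildtype liver (SD, n = 4 each; 0.82, limma adjusted p = 0.0182). Scap did not pass without wildtype 1 (0.0545) or without knockouts 3 and 11 together (0.0604). Mlxipl, the gene of the carbohydrate-sensing factor ChREBP, had a log2 change of -0.51 (limma adjusted p = 0.110) and Nr1h3, the LXR-alpha gene, one of -0.18 (limma adjusted p = 0.177). Median-ratio scaling gave 3 of the 17 higher and quantile normalization 4.

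Of 17 genes that supply carbon and NADPH 4 were lower and 0 higher (list median -0.04), where 11.7% of all tested genes were lower. Quantile normalization gave 3 lower and 1 higher, and median-ratio scaling 3 lower and 0 higher. Mpc2 and Mpc1, the subunits of the mitochondrial pyruvate carrier, were lower by the widest margins. Mpc2 was at 185 ± 23.9 FPKM in knockout and 417 ± 32.1 FPKM in wildtype liver (SD, n = 4 each; -1.17, limma adjusted p = 0.00187), and Mpc1 at 163 ± 7.35 FPKM in knockout and 249 ± 23.1 FPKM in wildtype liver (SD, n = 4 each; -0.61, limma adjusted p = 0.00507). Both passed without any single library and without knockouts 3 and 11 (0.00969 and 0.0248). The pyruvate dehydrogenase genes Dlat (-0.58, limma adjusted p = 0.0350) and Pdhb (-0.43, limma adjusted p = 0.0491) were lower too, but did not pass without knockouts 3 and 11 (0.165 and 0.122), which left 2 of the 17. Among the libraries left out singly, 5 ended the call of Dlat (up to 0.0912) and 7 that of Pdhb (up to 0.127).

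Of 15 tested partners of elongation, desaturation and acyl-CoA formation 1 was lower and 0 higher (list median 0.10). Cyb5a, cytochrome b5, which hands electrons to the acyl-CoA desaturases, was at 1240 ± 90.9 FPKM in knockout and 2040 ± 273 FPKM in wildtype liver (SD, n = 4 each; -0.71, limma adjusted p = 0.00802), and passed without any single library and without knockouts 3 and 11 (0.0291). Quantile normalization gave 2 lower and 1 higher in this list. Of 10 tested genes of fatty acid uptake and binding 2 were lower and 0 higher (list median -0.10). These were Slc27a5, a bile acid and fatty acyl-CoA synthetase (-0.61, limma adjusted p = 0.0115), and the fatty acid binding protein gene Fabp2 (-1.32, limma adjusted p = 0.0393), but with quantile normalization 0 were lower and 2 others higher, and Slc27a5 did not pass with it (0.0888) or with median-ratio scaling (0.0589). Fabp2 had a log2 change of -0.58 without knockouts 3 and 11 (limma adjusted p = 0.0454), did not pass with quantile normalization (0.0749) or median-ratio scaling (0.0507), and 6 of the libraries ended its call when left out singly (up to 0.104).

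Of 24 tested glycerolipid enzymes outside the members 2 were lower and 0 higher (list median -0.06). Both belong to phospholipid synthesis: Chkb, a choline kinase (-0.49, limma adjusted p = 0.0148), and Pcyt2 of phosphatidylethanolamine synthesis (-0.37, limma adjusted p = 0.0398), and neither passed without knockouts 3 and 11 (0.0777 and 0.164) or with quantile normalization (0.0839 and 0.476). Chkb did not pass without wildtype 1 either (0.0520), and 6 libraries left out singly ended the call of Pcyt2 (up to 0.106). Of 26 tested genes of droplet coats, droplet biogenesis and lipolysis 2 were lower and 1 higher (list median -0.02). Hsd17b13, a droplet protein linked to human fatty liver, was lower (-0.51, limma adjusted p = 0.0234), as was the lipase gene Ces1d (-0.65, limma adjusted p = 0.0281), which shares reads with similar carboxylesterase genes, and Faf2 was higher (0.36, limma adjusted p = 0.0365). Quantile normalization gave 0 lower and 2 higher. None of these 3 passed without knockouts 3 and 11 (0.0612, 0.103 and 0.127). Of the libraries left out singly, 3 ended the call of Hsd17b13 (up to 0.0745), 4 that of Ces1d (up to 0.0848) and 6 that of Faf2 (up to 0.103). Of 21 tested cholesterol synthesis genes and SREBP2 targets 1 was higher, Dhcr7 (1.19, limma adjusted p = 0.0422), and 0 were lower (list median 0.38), with Dhcr7 not passing without knockouts 3 and 11 (0.177) and 5 libraries ending its call singly (up to 0.113). The list's median log2 deviation from the wildtype mean was 1.034, 0.337, 0.115 and 0.21 in knockout libraries. In wildtype libraries it was -0.481, -0.162, 0.037 and 0.551, so wildtype 12 lay above knockouts 9, 10 and 11.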

How the data were processed

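Liver RNA was sequenced in 4 knockout and 4 wildtype libraries. Total RNA was isolated with Trizol, treated with DNase and purified on columns, per the labels' protocols. The submitters' processing notes list TopHat2 2.1.0, HTSeq and Cufflinks 2.2.1 with the build mm10, but no role for any tool, and neither annotation nor strand setting. FPKM of 25690 genes make up the deposited table, a unit inferred from its values and from Cufflinks. Names and coordinates of 24807 genes came from GENCODE M21 on the same build.

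From the deposited FPKM, log2(FPKM + 1) was computed for 10250 genes averaging 1 FPKM or more. limma 3.58.1 (R 4.3.3) took genotype as sole term, with a mean trend in the variance; tests were two-sided, adjusted by Benjamini-Hochberg, with a threshold of 0.05. On the scale used, changes of low genes come out too small. The script was tested on simulated data. Intervals are 95% limma intervals. FPKM hold no counts, so no count model was used, and depth was estimated from single-transcript genes longer than 1500 bases. An exact 0 was taken as a value.

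The members and lists were chosen with earlier results of these data known. Named were all members, at most 4 passing genes per pathway list by adjusted p, and Foxo1, Saa1 and S100a8; Cyp2e1, Hnf4a, Alb, Egfl7, Mlxipl, Nr1h3, Tmem258, Fth1 and Myrf, and the adipocyte markers, were named after their values were seen. Mvd, Tf and Ldaf1 were not analysed here. Alternatives were other pseudocounts, filters, scalings, removal of a length trend, variance models, library weights, the title number as a block, leaving out genes with a 0 and leaving out libraries.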

Additional observations from a re-analysis of the deposited data

Results flagged for a closer look

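In 5 of the 70 groups of 4 libraries formed by 35 genes, 1 library stood apart, its gap to the next one exceeding Dixon's 95% critical value relative to the range of the group, and chance gives this in about 1 group in 20. Acacb in knockout 9 was at 1.515 FPKM, below the other knockout libraries. Cd36 in knockout 10 was at 1.741 FPKM, above the other knockout libraries. Cidea in knockout 11 was at 0.0556 FPKM, where the other knockout libraries were listed at 0. Me1 in wildtype 12 was at 47.5 FPKM, above the other wildtype libraries. Mid1ip1 in wildtype 1 was at 25.2 FPKM, below the other wildtype libraries but above the highest knockout library, and without it Mid1ip1 was lower by a wider margin (-1.06, limma adjusted p = 0.0261).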

How the results depend on the processing

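Over 21 alternatives Fads2 passed in 20, Agpat2 in 16, Mid1ip1 in 15 and Fads1 in 12, and 0 of these 4 changed direction. Leaving out 1 library at a time gave 1 to 4 members higher, 0 to 2 lower and 701 to 1654 genes called in all. Without knockouts 3 and 11, 1 member was higher, 0 were lower and 855 genes were called; with no filter 0 members were lower. The numbers 3 and 10 are shared by both groups, but same-numbered libraries did not deviate together (r = -0.008 and 0.022 across genes). With the number as a replicate block, which leaves 1 residual degree of freedom, 0 members were higher, 0 lower and 2 genes called in all, and Fads2 had a log2 change of 1.23 (limma adjusted p = 0.268).

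Of the 28 members that did not pass, 16 changed sign under 1 or more alternatives, and the cause was not tested. With knockouts 3 and 11 left out the log2 change was -0.048 for Acly, 0.141 for Elovl6, 0.205 for Fads3, 0.334 for Me1, 0.118 for Dgat1, -0.121 for Lpin1, -0.056 for Lpin2 and -0.196 for Acss2. Under the block it was 0.084 for Scd1, 0.091 for Fads3, -0.055 for Cidec and 0.115 for Acsl5. Median-ratio scaling gave 0.031 for Elovl6, 0.003 for Fads3, 0.073 for Dgat1 and 0.043 for Acsl5, quantile normalization 0.042 for Dgat1 and 0.108 for Acsl5, removal of the length trend 0.04 for Dgat1 and -0.009 for Lpin2, and library weights 0.126 for Elovl6 and 0.006 for Acsl5. Leaving out 1 library gave ranges of -0.945 to 0.025 for Scd1, -0.131 to 0.192 for Elovl5, -0.243 to 0.087 for Elovl6, -0.227 to 0.026 for Fads3, -0.355 to 0.103 for Me1, -0.013 to 0.21 for Gpam, -0.11 to 0.042 for Dgat1, -0.085 to 0.147 for Lpin2, -0.096 to 0.192 for Pparg, -0.003 to 0.106 for Cideb, -0.03 to 0.176 for Cidec, -0.054 to 0.45 for Plin2 and -0.128 to 0.032 for Acsl5.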
